A study of Mus musculus with 2 samples.

Results

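This account covers 7 genes that start, restrain or localise blood clotting and plasminogen activation: F3, Tfpi, Thbd, Procr, Plat, Plau and Plaur. They were picked by symbol, with their levels in these cells already known, from a mouse microarray comparison of 2 mesoangioblast clones. Mesoangioblasts are vessel-associated progenitor cells with mesodermal potential. The members have 8 probe sets, out of 8251 genes that could be named on the arrays. Clone D351 was measured on 1 Affymetrix U74A array and clone D16 on another, so there is no replicate, no test and no p-value, and every difference is a size measured between these arrays. Each line is a single clone. Both clones derive from the dorsal aorta of C57BL6 embryos taken at embryonic day 9.5, whose explants were dissociated after 5 days. Cells were then cloned by limiting dilution over mitotically arrested fibroblasts in RPMI with 20% fetal calf serum and grown on gelatin. The labels name no treatment or genotype that separates the clones, and the comparison asks how their transcript levels differ.

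Clotting starts when tissue factor, the product of F3, binds factor VIIa on a cell surface and activates factor X, which leads to thrombin. Tissue factor pathway inhibitor (Tfpi) blocks that complex, while thrombomodulin (Thbd) and the endothelial protein C receptor (Procr) turn thrombin towards activating the anticoagulant protein C. Clots and matrix are cleared by plasmin, which is made from plasminogen by the tissue-type activator (Plat) and by urokinase (Plau), the second of which is held at the cell surface by its receptor (Plaur). Blood vessel endothelium is the classical site of Thbd, Procr, Tfpi and Plat, whereas F3 is typical of cells outside the vessel lumen.

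Levels are probe set intensities, scaled so that both arrays had the same median log2 level. Values under 17.4, the 40th percentile of all scaled values, were treated as below a floor, and a gene below it in 1 clone has a bound in place of a ratio. A difference of 2-fold or more was counted as past 2-fold. Of the 7 members, 4 were past 2-fold towards D351, 1 was past 2-fold towards D16, 1 lay within 2-fold and 1 was below the floor in both clones. Of the 6090 genes above the floor in D351, D16 or both, 10.5% were past 2-fold towards D351 and 8.83% towards D16. Scaling by the hybridization control probe sets instead moved the median log2 ratio of all genes to 0.34, against -0.03 as reported, and the share of genes past 2-fold that were higher in D351 to 82.9%, against 54.3%. Because these levels were known when the members were picked, the counts describe them and nothing more. In the only error that can be measured here, probe sets of the same gene differed in log2 ratio with an SD of 0.52 (806 genes, 1725 probe sets), which leaves out the spread between cultures.

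**Figure D1:**
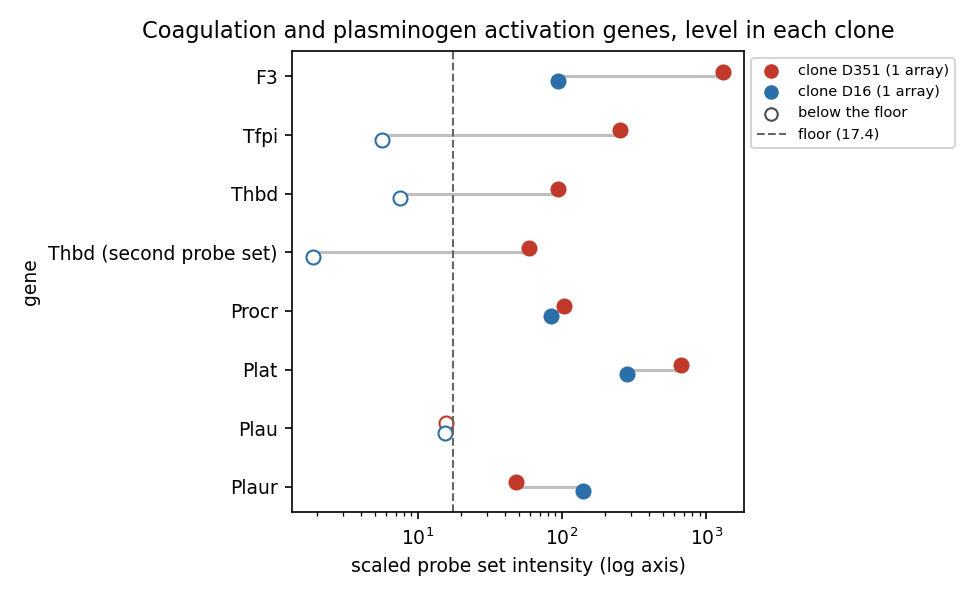
Scaled intensity of each member probe set on a log axis, with 1 point for the D351 array and 1 for the D16 array. Open points lie below the floor of 17.4. F3, Tfpi, Thbd and Plat lie further right in D351, Plaur further right in D16, the Procr points lie close together, and both Plau points are open.

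F3, the initiator, had the widest difference of the members measured in both clones. Its intensity was 1310.3 in D351 and 94.0 in D16, both well above the floor, a 13.9-fold higher level in D351 (log2 ratio of 3.80). This is 7.36 times the SD between probe sets of a gene. Of the 5204 genes measured in both clones, 10 had a higher ratio of D351 over D16. F3 was represented by 1 probe set, so no second probe set was there to compare it with.

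Tfpi, which inhibits the tissue factor complex, was also higher in D351. It measured 252 in D351, against 5.60 in D16, where it lay below the floor. Its level in D351 was at least 14.5-fold higher (log2 ratio of at least 3.86). The deposited values, 247.6 in D351 and 5.7 in D16, have a ratio of 43.4, but values so far below the floor have no reliable order. In D351 both the starter of the extrinsic pathway and its direct inhibitor were above the floor, whereas in D16 F3 was above it and Tfpi was not.

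The protein C pathway genes Thbd and Procr did not differ alike. Thbd, the thrombin-binding cofactor, measured 93.4 in D351, against 7.57 in D16, and was at least 5.37-fold higher in D351. Its second probe set, of a kind that can match other transcripts, measured 58.9 in D351 and 1.87 in D16, at least 3.39-fold higher. In both probe sets Thbd lay above the floor in D351 and below it in D16. Procr, the receptor that presents protein C to the thrombin complex, measured 103 in D351 and 83.6 in D16, a log2 ratio of 0.30, or 0.586 SDs between probe sets. That difference is smaller than the measurable error.

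**Figure D2:**
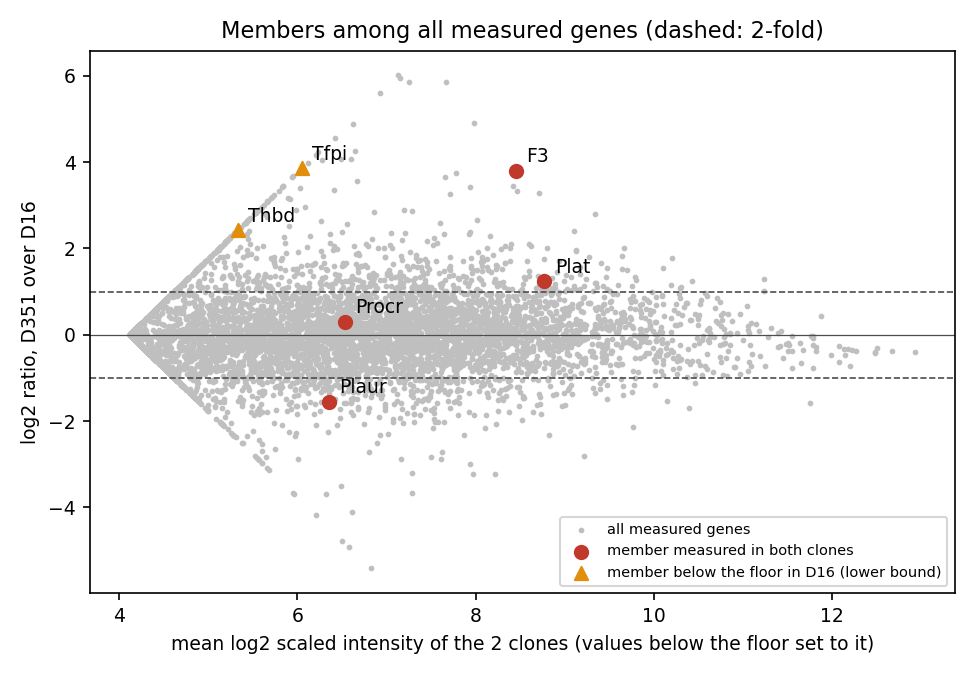
Log2 ratio of D351 over D16 against mean log2 intensity for all 6090 measured genes (grey) and the 6 measured members. Circles are members measured in both clones, and triangles are lower bounds (Tfpi at 3.86 and Thbd at 2.42). Dashed lines mark 2-fold; F3 at 3.80 stands apart from the bulk of genes of its level, and Plaur at -1.55 is the 1 member below the lower line.

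Among the plasminogen activation genes, activator and receptor went opposite ways. Plat, the tissue-type activator, measured 671 in D351 and 284 in D16, 2.36-fold higher in D351 (log2 ratio of 1.24), with 318 genes at a higher ratio. Plaur, the urokinase receptor, measured 47.8 in D351 and 139.9 in D16, 2.93-fold higher in D16 (log2 ratio of -1.55). The gene was above the floor in both clones. These differences came to 2.40 SDs between probe sets for Plat and 2.998 for Plaur, each from 1 probe set. Plau, which encodes urokinase itself, measured 15.6 in D351 and 15.4 in D16 and was below the floor in both, so it has no ratio. In both clones the receptor was above the floor and its ligand gene, at 0.89 times the floor, was just below it. That contrast depends on where the floor was put. At the 60th percentile floor of 53.3, Plaur would itself lie below it in D351.

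Promoter sequence (GRCm38.p6) was available for 4 of the 7 members: F3, Tfpi, Procr and Plaur. The 250 bases before the start are shown, 5′ to 3′, for F3 and Tfpi, the members with the largest differences towards D351, and for Plaur, the member that was higher in D16. Capitals mark matches on either strand to 4 short motifs: TGANTCA (AP-1), GGGCGG (Sp1), GGANTTTCC (NF-kappaB) and GCGNGGGCG (EGR1), some of which overlap.
F3 (chr3:121723287-121723536, plus strand): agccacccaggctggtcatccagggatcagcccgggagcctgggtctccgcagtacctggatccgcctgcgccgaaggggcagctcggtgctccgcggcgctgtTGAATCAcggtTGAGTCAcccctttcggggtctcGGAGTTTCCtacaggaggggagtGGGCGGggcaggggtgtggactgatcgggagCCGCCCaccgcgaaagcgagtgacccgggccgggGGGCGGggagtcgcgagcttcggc
Tfpi (chr2:84476760-84477009, minus strand): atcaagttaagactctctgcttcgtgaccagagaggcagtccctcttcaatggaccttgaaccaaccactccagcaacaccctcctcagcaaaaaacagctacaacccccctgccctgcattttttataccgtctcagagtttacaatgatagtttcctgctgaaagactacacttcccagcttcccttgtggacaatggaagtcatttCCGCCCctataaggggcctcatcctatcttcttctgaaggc
Plaur (chr7:24462233-24462482, plus strand): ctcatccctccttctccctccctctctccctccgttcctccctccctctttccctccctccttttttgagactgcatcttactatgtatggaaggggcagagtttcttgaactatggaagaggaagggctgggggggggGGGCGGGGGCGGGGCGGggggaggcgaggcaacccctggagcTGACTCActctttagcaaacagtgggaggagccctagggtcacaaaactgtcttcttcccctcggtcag
The F3 window held 2 AP-1 matches, 3 Sp1 matches and 1 NF-kappaB match, and AP-1 and NF-kappaB factors are known regulators of human F3. The Plaur window, whose start lies 1546 bases inside the annotated gene, held 1 AP-1 match, 3 Sp1 matches and 1 EGR1 match, some of which overlap. The Tfpi window held 1 Sp1 match, as did that of a second Tfpi start. The Procr window held 1 AP-1 match. Of 32851 promoter windows of this length, 6.75% held the AP-1 letters, 32.7% those of Sp1, 1.07% those of NF-kappaB and 4.70% those of EGR1. Other letters for AP-1 or NF-kappaB would give other matches and shares, so these do not show the F3 window to be unusual. The F3 and Plaur windows both held AP-1 and Sp1 letters. Any part of these letters in the differences was not tested. A match describes letters and does not show that a factor binds there.

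Transcription factors known to act on F3, Plau and Plaur were read from their brightest probe sets. Of 17 measured genes (20 listed), 14 were above the floor in both clones and the others have bounds. Among the 17, 0 had a ratio or bound past 2-fold towards D351 and 2 towards D16. The shares over all measured genes were 10.5% and 8.83%. The list had a median log2 ratio of -0.23, against -0.03 over all measured genes. Jun, an AP-1 subunit, measured 61.0 in D351 and 170.9 in D16 (log2 ratio of -1.49). Atf3, a stress-induced factor of the same superfamily, measured 51.4 in D351 and 131.5 in D16 (-1.36) by a probe set whose sequence may also match other transcripts, and another had -0.34. Atf3 was under 2-fold with hybridization control scaling (-0.96) and with the mean over its probe sets (-0.85). Ets1 measured 33.3 in D351 and 14.9, below the floor, in D16, at least 1.91-fold higher in D351, so whether it passed 2-fold is not known. Fosl1 measured 73.9 in D351 and 143.6 in D16, just short of 2-fold. The brightest probe set of Junb lay within 2-fold, and another gave 1.32. Rela, the NF-kappaB subunit p65, measured 801 in D351 and 482 in D16 (0.73). Under scaling by the hybridization controls the list median was 0.17, the opposite sign.

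The list of coagulation inhibitors and related genes also held nonmembers that were higher in D351. Of the 5 measured nonmembers, 2 were past 2-fold towards D351 and 1 towards D16, against 10.5% and 8.83% of all measured genes. The median log2 ratio of these nonmembers was 0.76. Anxa5, the brightest of them, measured 1285 in D351 and 760 in D16 (0.76). With the members included the median was 0.93, and it ran from 0.039 to 1.32 over the alternatives. Pros1, which encodes the protein C cofactor protein S, measured 137 in D351 and 57.1 in D16, 2.41-fold higher in D351. Gas6, listed as a relative of protein S, binds TAM receptors and is not itself a coagulation inhibitor. It measured 287 in D351 and 133 in D16, 2.15-fold higher in D351. Apart from Gas6, the only measured nonmember past 2-fold towards D351 was Pros1. Proc, the gene of protein C itself, went the other way, at 13.8 in D351, below the floor, against 35.1 in D16, at least 2.02-fold higher in D16 and near the floor there. Proc was under 2-fold with loess (-0.95), hybridization control scaling (-0.82) and the pseudocount (-0.78), just under 2-fold after quantile normalization, and without a value at the 60th percentile floor. Tfpi2, a related inhibitor, was below the floor in both.

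Apart from F3, which is a member and not in this list, the clotting factor genes gave little signal. Of 20 listed factors, processing genes and fibrinogen chains, 18 were on the arrays and 7 were measured. Of these 7, 0 were past 2-fold in either direction (median log2 ratio of 0.11), against 10.5% and 8.83% of all measured genes. Below the floor in both clones were F2, F5, F9, F10, F12, the fibrinogen genes Fga, Fgb and Fgg, and Vwf. F7, which encodes the protease partner of tissue factor, measured 92.6 in D351 and 133 in D16 (-0.52), and its other probe set was below the floor in D351 and near it in D16. The highest levels were those of Mcfd2 and Vkorc1, which act in secretion and vitamin K recycling in many cells: Vkorc1 measured 519 in D351 and 272 in D16 (0.93, and 1.33, past 2-fold, with hybridization control scaling), and Mcfd2 measured 459 in D351 and 498 in D16 (-0.12).

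The receptors through which thrombin and other clotting proteases signal, and their G proteins, gave no ratio or bound past 2-fold by their brightest probe sets. Of 10 listed genes, 7 were measured, with 0 past 2-fold either way, against 10.5% and 8.83% of all measured genes. Their median was -0.05 (0.56 with the floor at the 60th percentile). Of the 7, 3 were below the floor in D351, so only a bound is known for those. F2r, the thrombin receptor PAR1, measured 1402 in D351 and 858 in D16 by its brightest probe set (0.71). Its other probe sets had log2 ratios of 2.25 and 0.45, so the size of its difference depends on the probe set while the sign does not. Gna13, a G protein subunit used by PAR1, measured 277 in D351 and 146.5 in D16 (0.92), with 1.24 for its other probe set. Both were past 2-fold towards D351 under other settings: F2r at 1.10 and Gna13 at 1.31 with hybridization control scaling, and F2r at 1.14 and Gna13 at 1.08 with the mean over probe sets.

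The plasminogen system list had no common direction. Of 22 listed genes, 17 were on the arrays and 9 measured. Without the members, 7 were measured, 1 of them past 2-fold towards D351 and 0 towards D16. The shares over all measured genes were 10.5% and 8.83%. Without the members the median log2 ratio was -0.24. The median of the list with its members was also -0.24 and ran from -0.29 to 0.43 over the alternatives, so its sign depends on the setting. The gene past 2-fold was Plgrkt, a plasminogen-binding membrane protein, at 280 in D351 and 94.6 in D16 (2.96-fold higher in D351). S100a10 and Anxa2 form a surface complex that binds plasminogen and the Plat product. S100a10 measured 1600.2 in D351 and 2845 in D16 (-0.83). Anxa2 measured 2682 in D351 and 3177 in D16 (-0.24). Lrp1, the clearance receptor for Plat and for activator-inhibitor complexes, measured 1424 in D351 and 717 in D16 (0.99), just short of 2-fold. Plg, the plasminogen gene, was at 10.3 in D351 and 23.2 in D16, near or below the floor.

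**Figure D3:**
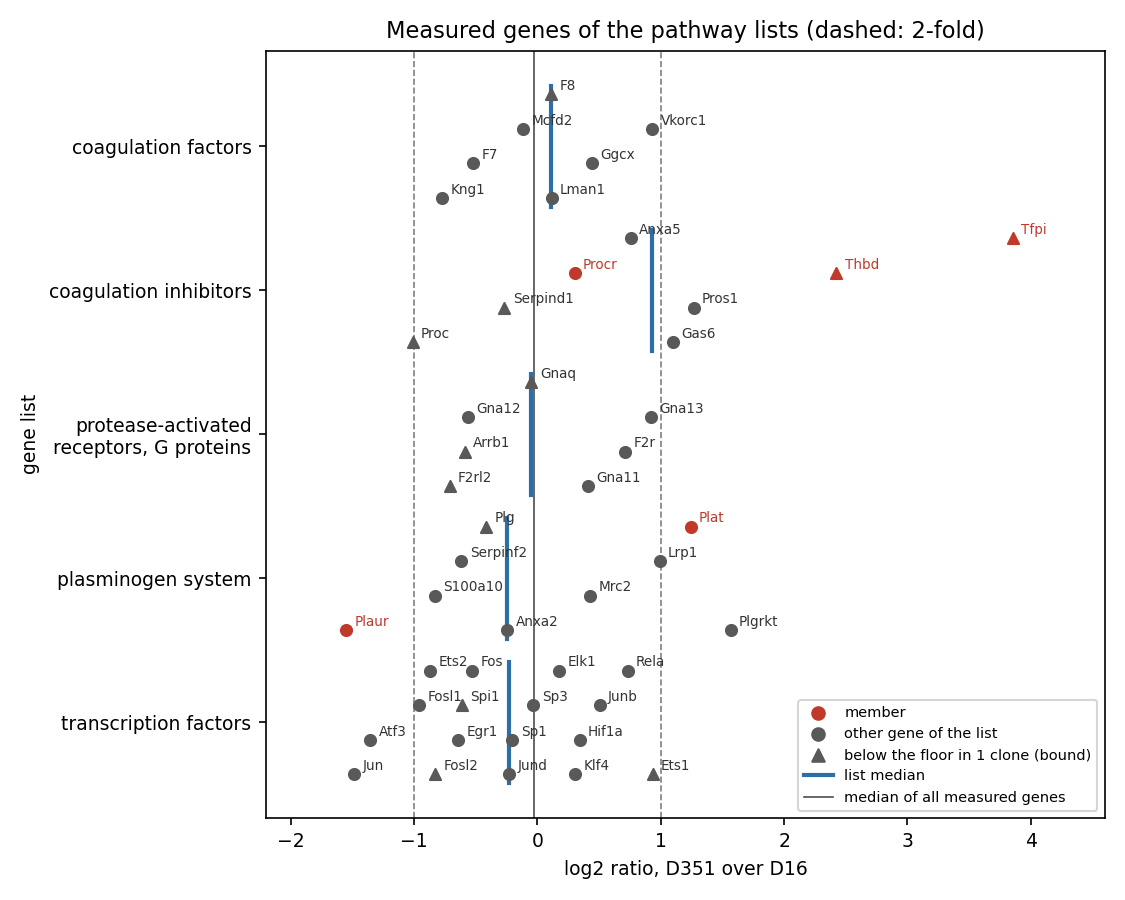
Log2 ratio of D351 over D16 for the measured genes of 5 lists, with members in red, triangles for genes below the floor in 1 clone, and blue bars at the list medians. The thin line is the median of all measured genes (-0.03). Of the members, Tfpi, Thbd, Plat and Plaur lie outside the dashed 2-fold lines, and the receptor and clotting factor lists lie within them. F3 is in none of these lists.

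Markers of cells in which these genes are best known were checked in the same arrays. Of 11 endothelial markers on the arrays, 8 were below the floor in D351 and 9 in D16, including Cdh5, Kdr, Tek, Cldn5 and Vwf in both, with summed levels of 236 in D351 and 214 in D16. Pecam1 measured 20.2 in D351 and 30.8 in D16, and Flt1 measured 66.1 in D351 and 16.2, below the floor, in D16. The other Flt1 probe set had 47.7 in D351 and 5.80, below the floor, in D16. Eng, the brightest marker of the list, measured 122 in D351 and 128 in D16. Thbd, Procr, Tfpi and Plat were above the floor in D351, as were Eng, Flt1 and Pecam1, while the other endothelial markers were not. A level below the floor does not show a gene to be silent. Of 11 macrophage and monocyte markers, 8 were below the floor in each clone, among them Ptprc, Adgre1, Itgam and Lyz2, with summed levels of 225 in D351 and 152 in D16. Cd68 measured 36.9 in D351 and 3.74, below the floor, in D16, at least 2.12-fold higher in D351, by a probe set that can match other transcripts. Cd14 measured 129 in D351 and 70.1 in D16, and Csf1r 18.2 in D351 and 21.9 in D16. The other Csf1r probe set had 21.2 in D351 and 16.7, below the floor, in D16. The part of these cells in the members' levels was not tested. In the platelet list 1 of 4 genes on the arrays was measured and in the hepatocyte list 1 of 6.

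By their brightest probe sets, the mesenchymal markers past 2-fold were higher in D351, with 1 exception. All 10 fibroblast markers were measured in both clones, 5 past 2-fold towards D351, 1 towards D16 and 4 within 2-fold, with summed levels of 13424 in D351 and 9533 in D16. The marker past 2-fold towards D16 was S100a4, at 414 in D351 and 1835 in D16 (log2 ratio of -2.15). Lum had the largest difference towards D351 among the fibroblast markers, at 94.0 in D351 and 23.4, near the floor, in D16 (4.02-fold). Of 8 smooth muscle markers, 6 were past 2-fold towards D351 and 0 towards D16, with summed levels of 6046 in D351 and 2003 in D16. Among them Actg2 measured 1129 in D351 and 104 in D16 (10.8-fold). Mylk measured 546 in D351 and 108 in D16 (5.06-fold). Cnn1 measured 157 in D351 and 10.7, below the floor, in D16, at least 9.04-fold higher in D351. The Actg2 and Cnn1 probe sets can match other transcripts. Some other probe sets of these markers differed from the brightest. Pdgfra had -0.09 by its brightest and -1.54, past 2-fold towards D16, by another. Col1a2 had 1.02 and then -0.62, and Col1a1 had 1.29 and then 0.41. Others of Col3a1 (1.55 and 1.25), Col6a1 (1.26) and Csrp1 (1.87) were past 2-fold towards D351. Over all measured genes, 10.5% were past 2-fold towards D351 and 8.83% towards D16. The part of these cell types in the differences of F3, Tfpi, Thbd and Plat was not tested. In bulk RNA, fewer cells of a type and less RNA per cell cannot be told apart.

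The genes closest to each member in log2 ratio over these 2 arrays were found for the 4 members measured in both clones. For F3 they were Snhg6 (3.74), Rnase4 (3.66) and Sox11 (3.57), between 0.062 and 0.24 away. For Plat they were Tmed9, Senp6 and Cds2, for Plaur they were Rangap1, Psat1 and Nsun4, and for Procr they were Ube2n, Tmem38b and Cd79a, each within 0.005 of the member. With 1 array a clone, likeness here is the size of a single ratio.

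**Figure D4:**
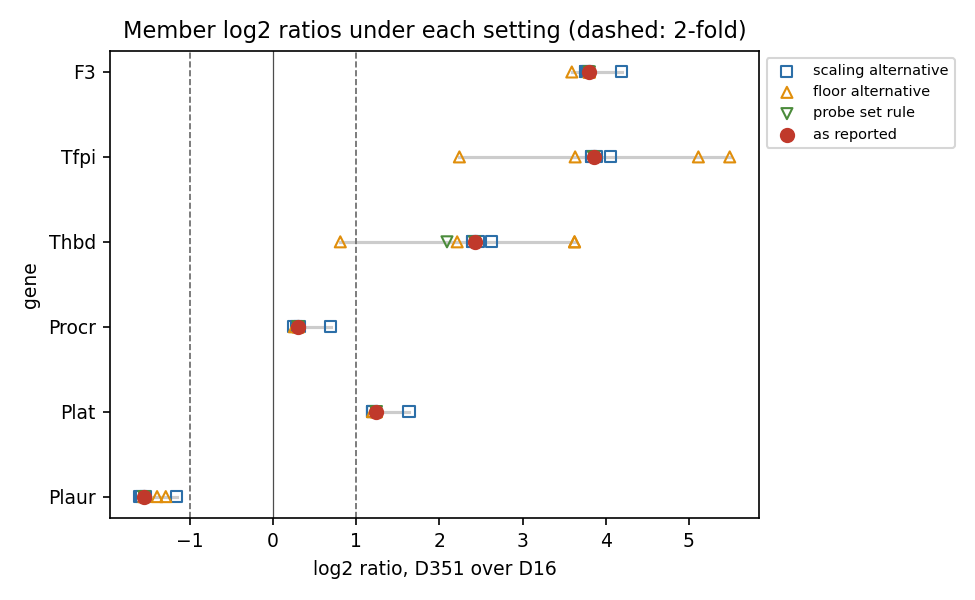
Log2 ratio of D351 over D16 of the 6 measured members under the reported setting (red) and 10 alternatives (open symbols: scaling, floor and probe set rule). F3 ran from 3.59 to 4.20, Plat from 1.19 to 1.64 and Plaur from -1.60 to -1.15, while Tfpi and Thbd ran wider because their D16 level lies below the floor.

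The sizes for Tfpi and Thbd rest on the floor. Tfpi ran from 2.24 with the floor at the 60th percentile to 5.49 with none. Thbd ran from 0.81, under 2-fold, to 3.63 across the same settings. The other members kept their side of 2-fold under every alternative scaling, floor and probe set rule tried, with Procr between 0.25 and 0.70.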

How the data were processed

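Total RNA of the 2 clones was measured on Affymetrix U74A arrays, 1 per clone. The authors deposited 1 linear intensity for each probe set; which software and background method made it is not given in the sources used here. Trimmed means (2% at each end) were 100.1 for both arrays, so the authors' values appear to be scaled to a common target.

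Of 12488 probe sets, 66 were controls and were left out. Of the rest, 10833 had a single gene symbol in the platform annotation, 396 several and 1193 none. The annotation belongs to a later version (2) of the array than the U74A of the titles, and the version used was not checked. Some probe sets of the first version are known to carry sequence of the wrong strand, so a gene below the floor, such as Plau, Kdr or a clotting factor, is not shown to be silent. Symbols were updated by Entrez number to RefSeq (GRCm38.p6; 10817 probe sets) or kept (16). To equalise the median log2 level of probe sets that passed the floor on both arrays, D351 was multiplied by 1.02 and D16 by 0.983. The floor was the 40th percentile, lower values were raised to it, and ratios are D351 over D16 on the log2 scale. At or above it were 59.3% of probe sets in D351 and 60.7% in D16. The probe set with the highest mean level stood for a gene. The number of arrays limits the precision. Signal at the 3′ end over that at the 5′ end was 1.37 in D351 and 1.81 in D16 for Actb, and 1.44 in D351 and 1.56 in D16 for Gapdh.

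The members and lists were chosen with earlier results of these data known. Named were the members, the genes of each pathway list at least 2-fold apart (at most 6, or the 2 with the highest level where none was) and the 3 genes closest to each member in ratio; others, marker genes included, were named for their role or where a count turned on them. The functions were tested on simulated arrays. Alternatives covered scaling, floor, probe set rule and size threshold. Python 3.11.15 was used with numpy 2.4.6, pandas 2.3.3, scipy 1.17.1, statsmodels 0.14.6 and matplotlib 3.10.9.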

Additional observations from a re-analysis of the deposited data

How the results depend on the processing

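No paired analysis was possible because a single array was made for either clone, and leaving out a replicate was not possible. Of 60 member values under the alternatives, 54 stayed within the SD between probe sets and 0 reversed. The count of members past 2-fold towards D351 ran from 3 to 4. At 3-fold, 0 members were higher in D16, since Plaur lies under that size.

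With the floor at the 25th percentile Tfpi had 5.11 and Thbd 3.63, with no floor 5.49 and 3.63, and with the floor at the 60th percentile 2.24 and 0.81. Plau, below the floor as reported, had 0.038 with hybridization control scaling, 0.012 with the 25th percentile floor, 0.012 with none and 0.0061 with a pseudocount of 16.

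With hybridization control scaling the median over all genes became 0.34, with 1203 genes past 2-fold towards D351 and 248 towards D16, so that 82.9% of these were higher in D351, against 54.3% as reported. List medians then were 0.31 for clotting factors, 1.32 for inhibitors, 0.094 for the plasminogen system and 0.17 for transcription factors. The inhibitor median, 0.93 with its members as reported, was 0.15 with the 25th percentile floor, 0.20 with none and 0.039 with the pseudocount, where genes below the floor as reported enter. The plasminogen median was 0.050 after quantile normalization, -0.020 after loess, 0.021 with the 25th percentile floor, 0.091 with the 60th, 0.012 with none, 0.0061 with the pseudocount and 0.43 without shared-target probe sets, so its sign is not settled. The receptor median was 0.56 with the 60th percentile floor.

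Genes past 2-fold numbered 639 towards D351 and 538 towards D16 as reported, 849 towards D16 with the 25th percentile floor, 403 towards D351 and 326 towards D16 with the 60th, and 1148 towards D351 and 1261 towards D16 with none. At 1.5-fold they were 1279 towards D351 and 1277 towards D16, and at 3-fold 251 towards D351 and 157 towards D16. Values near the floor limit what can be said of Plau, Plg and Proc.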

Other observations

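Neighbouring genes of the members, taken as the 3 protein-coding genes on each side in the RefSeq order, were looked up after the members' values were known. Of 42 such neighbours, 24 were on the arrays and 19 measured, with a median log2 ratio of 0.02. Of the 19, 3 were past 2-fold towards D351 and 1 towards D16, against 10.5% and 8.83% of all measured genes. Abcd3, a peroxisomal transporter gene next to F3, measured 449 in D351 and 89.4 in D16 (log2 ratio of 2.33). Cnn3, a calponin gene on the other side of F3, measured 1044 in D351 and 1046 in D16. Ctnnd1, the p120 catenin gene beside Tfpi, measured 1023 in D351 and 466 in D16 (1.14), and Calcrl on the other side of Tfpi was below the floor in both. Near Plaur, the potassium channel gene Kcnn4 was at 36.7 in D351 and below the floor in D16, the opposite direction to Plaur. Near Thbd, Pax1, a paired-box transcription factor gene, was at 14.5 in D351, below the floor, and 35.1 in D16 (a bound of -1.01), the opposite direction to Thbd. Also near Thbd, the endothelial and myeloid gene Cd93 was below the floor in both clones.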
